A study of Mus musculus with 12 samples.

Results

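The genes described here are 10 members of the p53 and cell cycle arrest group, and all 10 were found by symbol among the 35275 genes of the deposited table. They were chosen by name: *Trp53*, the gene of p53, its antagonist *Mdm2*, the cyclin-dependent kinase inhibitors *Cdkn1a*, *Cdkn2a* and *Cdkn2b*, and the p53-responsive genes *Phlda3*, *Bax*, *Gdf15*, *Ccng1* and *Trp53inp1*. Earlier results of these data were known when the members and the related lists below were picked. Their shares of calls beside those of all genes are therefore descriptions and no independent support. RNA had been sequenced from kidney tissue of 12 mice that were 6 months old, all on the C57BL/6J strain, in 3 groups of 4 mice, each of 2 males and 2 females. WT mice carried neither of the mutations that follow. RC/RC mice carried a missense allele of *Pkd1*, the gene most often mutated in autosomal dominant polycystic kidney disease, on both chromosomes, which leaves a partly working protein and gives slowly growing cysts. RC/RC:*Casp1*KO mice carried the same *Pkd1* alleles and were in addition knocked out for *Casp1*, the gene of the inflammasome protease Caspase-1, in the whole animal rather than in a chosen cell type. Column names give the strain and number of a mouse but do not say whether it was male or female, and the sexes were therefore pooled.

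p53 is a transcription factor that accumulates when cells meet DNA damage or other stress. It switches on genes that stop the cell cycle, such as *Cdkn1a*, and genes that favour cell death, such as *Bax*, and it also switches on *Mdm2*, whose protein marks p53 for destruction and so closes a feedback loop. *Cdkn2a* and *Cdkn2b* are neighbouring genes whose products hold the cell cycle before DNA replication through the retinoblastoma protein, and they are widely used as markers of senescence in kidney and other tissues. p53 is regulated mainly as a protein, so RNA levels of *Trp53* do not by themselves report its activity.

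Between 18019819 and 24869454 reads were counted on genes in each mouse. *Casp1*, which checks the group labels, was at 2.05, 1.29, 1.31 and 1.41 CPM (counts scaled to a common library size with TMM factors) in the WT mice B6_2, B6_3, B6_4 and B6_6. It was at 3.33, 3.86, 4.24 and 2.62 CPM in the RC/RC mice RC105, RC139, RC140 and RC143, and at 0.38, 0.67, 0.67 and 1.06 CPM in the RC/RC:*Casp1*KO mice Del3_60, Del3_105, Del3_42 and Del3_70. The values of single mice are given below in these orders. All knockout mice lay below all RC/RC mice. Within WT, the counts of B6_2 and B6_3 and those of B6_4 and B6_6 were closer to each other (chi-square over its degrees of freedom of 17.7 and 16.4) than those of the other pairs (89.8 to 127). In the knockout group Del3_60 and Del3_105 (15.7) and Del3_42 and Del3_70 (31.8) were likewise closer than the other pairs (67.1 to 93.4), and in RC/RC the closest pair was RC140 with RC143 (37.2, against 67.6 to 128). The source of these pairs was not tested. *Pkd1* RNA does not check the labels, since the allele is a missense change, and ranged from 40.2 to 67.5 CPM in WT, from 46.4 to 67.4 CPM in RC/RC and from 56.3 to 87.2 CPM in RC/RC:*Casp1*KO kidneys. The kidney label held in the data, with *Slc34a1* of the proximal tubule at 5850 CPM, *Umod* of the thick ascending limb at 3948 CPM and *Podxl* of the podocyte at 307 CPM on average in WT.

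The promoters of the members were searched for a part of the sequence that p53 is known to bind. RefSeq promoters (GRCm38.p6, from 250 bases before to 50 after a gene's start) were given for 9 of the 10 members, with 12 windows in all, and for *Trp53inp1* none was given. The search was for the 10-base repeat unit of the p53 consensus, 2 copies of which make a full binding site, on both strands (the consensus is its own reverse complement). At least 1 copy was present in 5 of the 12 windows, those of *Trp53*, *Cdkn1a*, *Mdm2*, *Ccng1* and *Bax*, against 8.36% of 32851 promoters of the same length. Its most common centre, CATG, which can lie within a match, was in 6 of the 12 windows, against 61.1% of all promoters. The windows of 3 members that moved after *Casp1* knockout are printed 5′ to 3′ on the gene's strand, with each copy of the 10-base unit in capitals. The *Cdkn1a* window, at the more upstream of 2 listed starts, is chr17:29090729-29091028 on the plus strand, with units that begin 73 and 51 bases before the start and lie 12 bases apart. The *Bax* window is chr7:45466849-45467148 on the minus strand, with a unit 201 bases before the start. The *Mdm2* window is chr10:117710709-117711008 on the minus strand, with a unit 186 bases before the start.
Cdkn1a: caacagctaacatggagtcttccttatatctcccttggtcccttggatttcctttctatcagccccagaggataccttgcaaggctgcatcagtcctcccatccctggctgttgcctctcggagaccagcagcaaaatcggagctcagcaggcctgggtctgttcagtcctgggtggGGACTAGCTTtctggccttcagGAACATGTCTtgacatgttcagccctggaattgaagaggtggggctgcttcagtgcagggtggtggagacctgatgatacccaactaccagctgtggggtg
Bax: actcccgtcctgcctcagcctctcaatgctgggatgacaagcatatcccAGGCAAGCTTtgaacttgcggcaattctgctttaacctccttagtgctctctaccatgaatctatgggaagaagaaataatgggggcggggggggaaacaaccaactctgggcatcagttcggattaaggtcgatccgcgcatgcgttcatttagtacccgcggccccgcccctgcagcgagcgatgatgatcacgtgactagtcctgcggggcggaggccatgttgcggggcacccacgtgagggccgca
Mdm2: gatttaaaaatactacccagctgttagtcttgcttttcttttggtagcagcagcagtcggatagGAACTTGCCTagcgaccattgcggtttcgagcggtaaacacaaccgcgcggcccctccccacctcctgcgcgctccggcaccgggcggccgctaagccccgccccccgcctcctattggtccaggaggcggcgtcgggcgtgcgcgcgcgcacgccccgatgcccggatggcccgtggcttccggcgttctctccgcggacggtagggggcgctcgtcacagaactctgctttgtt
These matches describe the letters in the windows only. A window without a match does not show that its gene lacks a p53 site, since units with a mismatch and sequence outside the windows were not searched.

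Levels were compared between genes as FPKM, in which counts are divided by gene length and by library size. *Ccng1* and *Bax* were the most abundant members, with means over the 12 mice of 55.3 FPKM (44.8 to 72.1) and 41.4 FPKM (33.2 to 65.2), and their ranges overlapped. *Mdm2* followed at 15.5 FPKM (11.0 to 20.1), below every value of *Bax*. *Trp53*, at 10.1 FPKM (7.92 to 12.6), overlapped with *Mdm2* and with the next 4, which were *Phlda3* (9.17 FPKM), *Trp53inp1* (8.97 FPKM), *Cdkn1a* (7.92 FPKM) and *Gdf15* (7.75 FPKM). The cell cycle inhibitors of chromosome 4 were the weakest, *Cdkn2b* at 2.94 FPKM (1.05 to 7.61) and *Cdkn2a* at 0.747 FPKM (0 to 2.55). The ranges of these last genes overlapped with each other, and that of *Cdkn2b* also with that of *Gdf15* but not with that of *Trp53*.

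**Figure D1:**
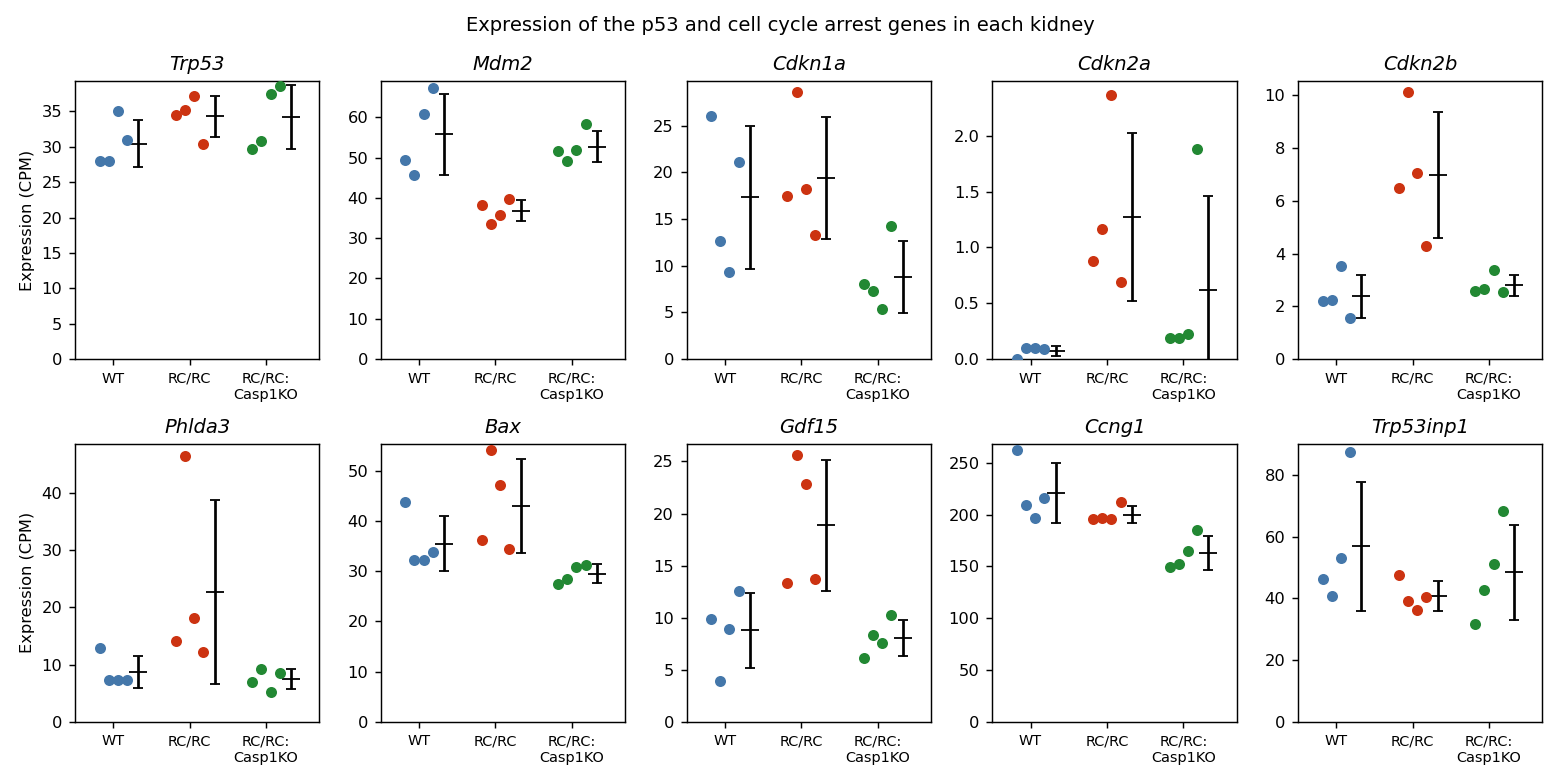
Expression of each of the 10 genes in each kidney, in CPM (vertical axis, from 0 and on a scale of its own for each gene), with 1 point per mouse by group, and the mean and SD of the 4 mice beside the points. *Cdkn2b* lay between 4.29 and 10.1 CPM in RC/RC mice and between 1.55 and 3.52 CPM in all other mice, *Mdm2* was lowest in the RC/RC mice, and 1 RC/RC mouse stood apart in *Phlda3* at 46.6 CPM.

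The first comparison asked how the cystic RC/RC kidney differed from the WT kidney. *Cdkn2b* rose and *Mdm2* fell in RC/RC, *Cdkn2a* had nearly all its reads there, and *Trp53* and the classical arrest gene *Cdkn1a* did not pass the test. *Cdkn2a* entered the test only through the RC/RC mice, since WT counts were too low for the filter, and so it had to differ and its call is not counted here. The 2 calls among the other 9 members stand beside 12.9% of the 15243 genes tested (9.76% higher and 3.18% lower), and the median log2 fold change of these 9 was 0.17, against −0.02 over all genes tested. Genes were called at an adjusted p under 0.05 in edgeR's quasi-likelihood test of the 8 mice, with Benjamini-Hochberg adjustment over all genes tested. Groups did not overlap for 3 of these 9 members, against 19.6% of all genes tested.

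*Cdkn2b* (ENSMUSG00000073802, chr4:89306289-89311032 in the table's coordinates, build mm10) encodes the inhibitor p15Ink4b. It was at 2.19, 2.24, 3.52 and 1.55 CPM in WT mice and at 6.50, 10.1, 7.03 and 4.29 CPM in RC/RC mice. Every RC/RC mouse lay above every WT mouse, a 2.93-fold difference (log2 fold change 1.55, SE 0.32, edgeR adjusted p = 0.0132). *Cdkn2a* (ENSMUSG00000044303, chr4:89274471-89294653) lies next to it and encodes the inhibitor p16Ink4a and, in another reading frame, p19Arf, which binds Mdm2 and releases p53. The table holds 1 value for the gene, so its transcripts cannot be told apart. The gene had 0, 2, 2 and 2 reads in the WT mice, which is below the 3 reads taken here as the limit of detection, and 23, 22, 44 and 16 reads in the RC/RC mice. The ratio of the summed reads, scaled for library size, was 16.7, with a 95% interval of 7.43 to 46.6 that covers counting error only. The fitted log2 fold change of 4.02 (SE 0.65) depends on the prior count because WT is so low, and the edgeR call (adjusted p = 0.00444) is given as a description.

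*Mdm2* (ENSMUSG00000020184, chr10:117688888-117710758), the ubiquitin ligase that limits p53, was at 49.3, 45.8, 60.8 and 67.3 CPM in WT mice. In RC/RC mice it was at 38.3, 33.6, 35.8 and 39.7 CPM. All RC/RC mice lay below all WT mice, and the level fell by 0.60 on the log2 scale (SE 0.14, edgeR adjusted p = 0.0199). The call was lost when B6_6, RC139 or RC140 was left out, with an adjusted p of at most 0.0578 over the 8 fits that leave out 1 mouse each. It was also lost with limma on log2(FPKM + 1) (adjusted p = 0.0555), whereas the other 8 ways of processing the counts kept it. *Trp53* (ENSMUSG00000059552, chr11:69580359-69591873) was at 28.0, 28.0, 35.0 and 30.9 CPM in WT and at 34.5, 35.3, 37.2 and 30.3 CPM in RC/RC mice. These values overlapped, and the difference of 0.17 on the log2 scale (SE 0.11) had an edgeR adjusted p of 0.343.

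*Cdkn1a* (ENSMUSG00000023067, chr17:29090979-29100722) encodes p21, the kinase inhibitor through which p53 halts the cell cycle. It was at 26.1, 12.7, 9.35 and 21.1 CPM in WT and at 17.4, 28.6, 18.2 and 13.3 CPM in RC/RC mice, and the groups overlapped over most of their ranges. The log2 fold change was 0.16 (SE 0.33, edgeR adjusted p = 0.778), and it was −0.11 without RC139.

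Among the p53-responsive genes, *Gdf15* and *Phlda3* were higher in RC/RC without passing the test. *Gdf15* (ENSMUSG00000038508, chr8:70629393-70632456) encodes a secreted stress cytokine and was at 9.86, 3.90, 8.90 and 12.5 CPM in WT and at 13.3, 25.6, 22.9 and 13.7 CPM in RC/RC mice. All RC/RC mice lay above all WT mice, but the log2 fold change of 1.10 (SE 0.35) had an edgeR adjusted p of 0.0691. *Phlda3* (ENSMUSG00000041801, chr1:135766119-135769136) encodes an inhibitor of Akt signalling and was at 13.0, 7.33, 7.29 and 7.30 CPM in WT and at 14.1, 46.6, 18.1 and 12.2 CPM in RC/RC mice. The groups overlapped through B6_2 and RC143, and the log2 fold change of 1.38 (SE 0.42, edgeR adjusted p = 0.0627) was 0.74 without RC139. DESeq2 called both genes, as did the fit with 1 surrogate variable and the fit of all 12 mice.

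The remaining 3 p53-responsive genes overlapped between WT and RC/RC. *Bax* (ENSMUSG00000003873, chr7:45461695-45466898), the pore-forming killer of the BCL2 family, was at 43.7, 32.2, 32.3 and 33.8 CPM in WT and at 36.1, 54.0, 47.3 and 34.4 CPM in RC/RC mice (log2 fold change 0.27, SE 0.17, edgeR adjusted p = 0.309). *Ccng1* (ENSMUSG00000020326, chr11:40748552-40755311) encodes cyclin G1, which takes part in the feedback on p53 through Mdm2. It was at 263, 209, 196 and 216 CPM in WT and at 195, 196, 196 and 212 CPM in RC/RC mice (log2 fold change −0.14, SE 0.12, edgeR adjusted p = 0.456). *Trp53inp1* (ENSMUSG00000028211, chr4:11156431-11174379), whose product promotes p53 activity and autophagy, was at 46.4, 40.8, 53.3 and 87.4 CPM in WT and at 47.7, 39.1, 36.2 and 40.4 CPM in RC/RC mice (log2 fold change −0.48, SE 0.22, edgeR adjusted p = 0.189).

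The next comparison asked what knockout of *Casp1* did in the RC/RC kidney. The members *Cdkn1a*, *Cdkn2b*, *Phlda3*, *Bax* and *Gdf15* fell and *Mdm2* rose. These 6 calls among 10 members stand beside 11.6% of the 15428 genes tested (7.23% higher and 4.41% lower), and the median log2 fold change of the members was −0.79 (−0.55 without *Cdkn2a*), against −0.03 over all genes tested. Groups did not overlap for 6 of the 10 members, against 20.4% of all genes tested. Since the members were picked with earlier results of these data known, these shares are a description only. This comparison shares its RC/RC mice with the one against WT, so the values of the comparisons are not independent of each other. Without RC140 no member was called, without Del3_105 or Del3_60 *Mdm2* was the 1 member called, and without Del3_42 the 3 called were *Mdm2*, *Cdkn2b* and *Gdf15*. RC139 and RC140 had the highest mitochondrial shares of the 12 mice (12.1% and 11.6%), and Del3_60 had the lowest (7.78%). Del3_105 (9.55%) and Del3_42 (10.4%), without which calls were also lost, lay between these. The part of the mitochondrial share in the calls was not tested.

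*Mdm2* was at 51.7, 49.2, 51.8 and 58.3 CPM in RC/RC:*Casp1*KO mice, above all 4 RC/RC mice. The difference was 1.42-fold (log2 fold change 0.51, SE 0.10, edgeR adjusted p = 0.0159), and the gene was called in all 9 other ways of processing the counts. *Cdkn2b* was at 2.60, 2.67, 3.38 and 2.53 CPM, below all 4 RC/RC mice. It was 2.51-fold lower (log2 fold change −1.33, SE 0.26, edgeR adjusted p = 0.0179). *Gdf15* was at 6.15, 8.29, 7.54 and 10.3 CPM, again below all 4 RC/RC mice. It was 2.36-fold lower (log2 fold change −1.24, SE 0.25, edgeR adjusted p = 0.0198). *Cdkn2b* and *Gdf15* were also called in all 9 other ways of processing.

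The other 3 genes that fell were called less steadily. *Phlda3* was at 6.99, 9.25, 5.16 and 8.56 CPM in the knockout mice, below all RC/RC mice, and was 3.04-fold lower (log2 fold change −1.61, SE 0.42, edgeR adjusted p = 0.0399). Without RC139 the log2 fold change of *Phlda3* was −0.96 (SE 0.22, edgeR adjusted p = 0.0487). *Cdkn1a* was at 8.02, 7.29, 5.38 and 14.3 CPM, where Del3_70 lay above the lowest RC/RC mouse. It was 2.23-fold lower (log2 fold change −1.15, SE 0.31, edgeR adjusted p = 0.0446). *Bax* was at 27.4, 28.5, 30.8 and 31.2 CPM, below all RC/RC mice, and was 1.47-fold lower (log2 fold change −0.55, SE 0.15, edgeR adjusted p = 0.0443). Of the 9 other ways of processing, 6 called *Phlda3*, 5 called *Cdkn1a* and 5 called *Bax*.

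*Ccng1* was at 149, 152, 165 and 185 CPM in the knockout mice, below all RC/RC mice, with a log2 fold change of −0.31 (SE 0.11) that did not pass (edgeR adjusted p = 0.0945). Of the 9 other ways of processing, 1 called *Ccng1* here. *Trp53* was at 29.7, 30.9, 37.5 and 38.6 CPM, with a log2 fold change of −0.02 (SE 0.11, edgeR adjusted p = 0.941). *Trp53inp1* was at 31.8, 42.6, 51.3 and 68.3 CPM, with a log2 fold change of 0.24 (SE 0.20, edgeR adjusted p = 0.457). Neither of these last genes separated the groups.

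*Cdkn2a* had 5, 4, 4 and 41 reads in the knockout mice, or 0.19, 0.19, 0.22 and 1.89 CPM. The mice Del3_60, Del3_105 and Del3_42 lay below all RC/RC mice, whereas Del3_70 lay among them. With all mice the log2 fold change was −1.02 (SE 0.77, edgeR adjusted p = 0.390), and without Del3_70 it was −2.62 (SE 0.54), where the gene passed the filter only through the RC/RC mice and its call is no support. The ratio of the summed reads was 0.515 with all mice (95% interval 0.364 to 0.721) and 0.165 without Del3_70 (0.0851 to 0.295), both intervals for counting error only.

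**Figure D2:**
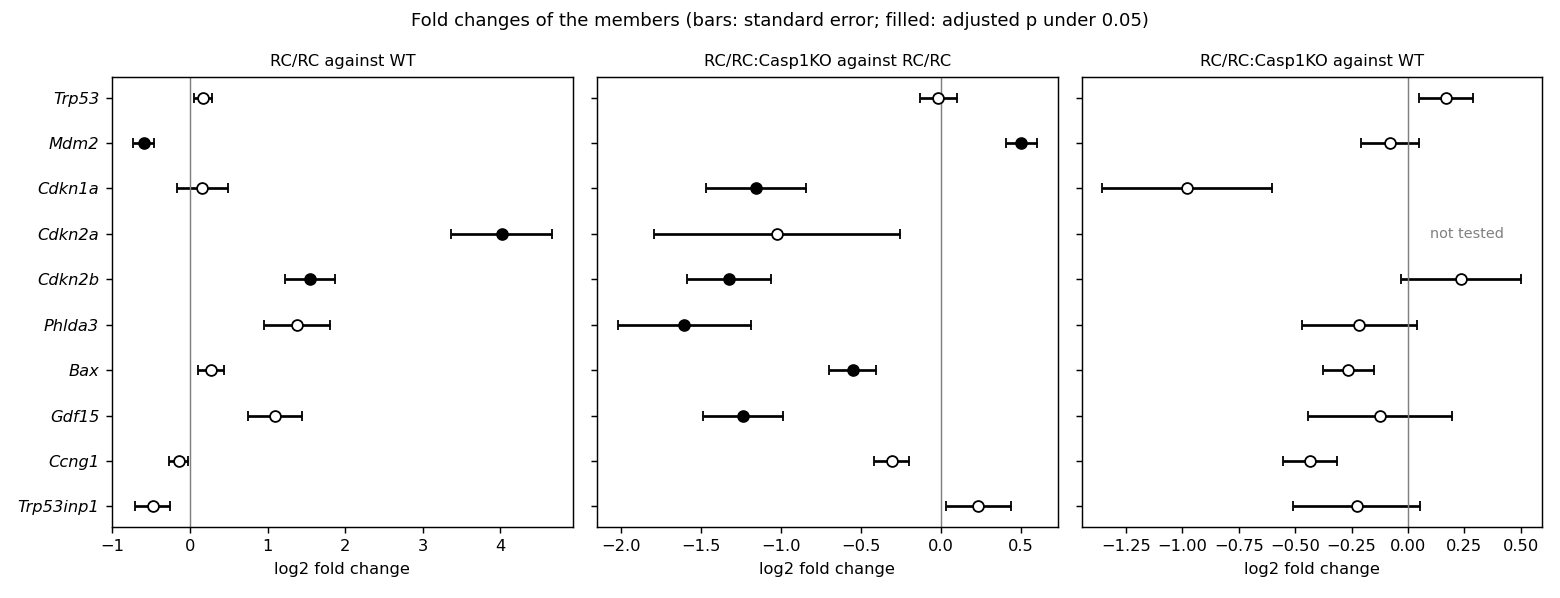
Log2 fold change of each of the 10 genes (points) with its standard error (bars) in the 3 comparisons, from edgeR's fit of the 8 mice compared. Filled points have an adjusted p under 0.05, and the horizontal scales differ between panels. In the panel of RC/RC and WT, points are filled for *Mdm2*, *Cdkn2b* and *Cdkn2a*, the last of which entered the test only through its counts in RC/RC. The knockout differed from RC/RC in 6 genes, and no point is filled in RC/RC:*Casp1*KO against WT, where *Cdkn2a* was not tested.

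Between RC/RC:*Casp1*KO and WT, 0 of the 9 members tested were called, beside 2.03% of the 15346 genes tested. In edgeR's test 3 members had an unadjusted p under 0.05, which were *Ccng1*, *Cdkn1a* and *Bax*, all lower in the knockout, and 21.8% of all genes tested did so. DESeq2 and the fit with 1 surrogate variable each called 1 member, *Ccng1*. All knockout mice had less *Ccng1* than all WT mice, with a log2 fold change of −0.43 (SE 0.12, edgeR adjusted p = 0.101). *Cdkn1a* had a log2 fold change of −0.98 (SE 0.38, edgeR adjusted p = 0.184), with overlap, and *Bax* of −0.26 (SE 0.11, edgeR adjusted p = 0.225), without overlap. *Mdm2*, *Cdkn2b*, *Phlda3* and *Gdf15* had log2 fold changes of −0.08, 0.24, −0.21 and −0.12, and each of them overlapped between the groups. *Cdkn2a* was left out by the filter on low counts, being low in WT and in 3 of the 4 knockout mice. All knockout mice had more of its reads than all WT mice, but 41 of the 54 reads came from Del3_70. The ratio of the summed reads was 8.60 with all mice (95% interval 3.71 to 24.5) and 2.76 without Del3_70 (0.979 to 8.86, counting error only), an interval that holds 1. Groups did not overlap for 2 of the 9 members tested, against 13.9% of all genes tested.

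The members also differed in length, and fold changes went with gene length over the whole table. Genes under 1000 bp had a median log2 fold change of 0.18 in RC/RC against WT and of −0.32 in RC/RC:*Casp1*KO against RC/RC. Genes over 6000 bp had medians of −0.16 and 0.25. The 6 short members are *Bax* (869 bp), *Cdkn2a* (895 bp), *Cdkn2b* (1393 bp), *Phlda3* (1435 bp), *Gdf15* (1545 bp) and *Cdkn1a* (1910 bp), and the others have 3132 bp (*Mdm2*) to 5432 bp (*Trp53inp1*). The 5 members that fell in the knockout are thus all short, and the 1 that rose is long. When the trend with length was removed from each library, an alternative chosen after this was seen, *Cdkn2b* and *Mdm2* were still called in RC/RC against WT. In the knockout against RC/RC, *Mdm2* (log2 fold change 0.52, edgeR adjusted p = 0.0103), *Cdkn2b* (−1.12, 0.0242) and *Gdf15* (−1.03, 0.0274) were still called. *Cdkn1a* (−1.01, 0.0740), *Phlda3* (−1.38, 0.0638) and *Bax* (−0.27, 0.135) were not. The source of the trend was not tested.

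**Figure D3:**
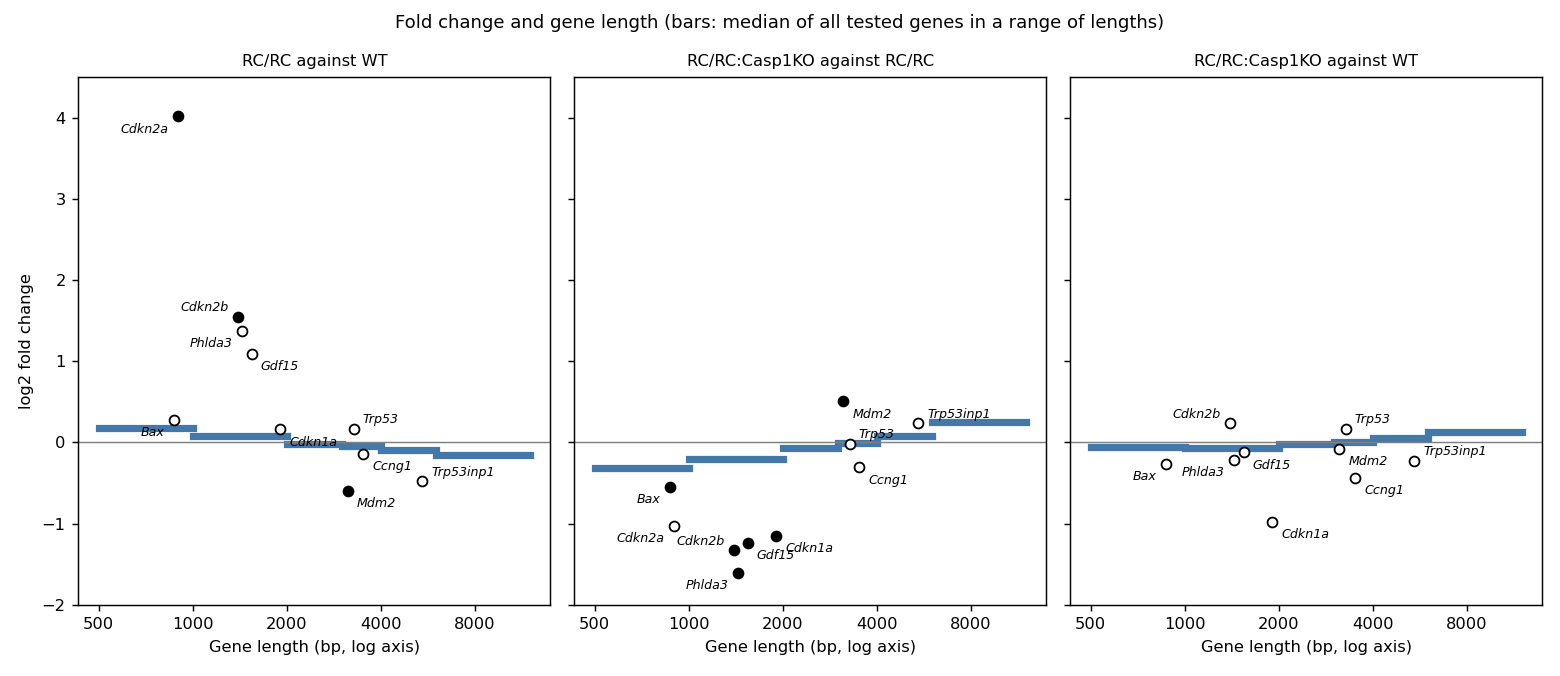
Log2 fold change (vertical axis) against gene length in bp (horizontal log axis) for the members, with filled points for an adjusted p under 0.05. The blue bars give the median of all tested genes in each of 6 ranges of length, which falls from 0.18 to −0.16 in RC/RC against WT and climbs from −0.32 to 0.25 in RC/RC:*Casp1*KO against RC/RC.

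Some mice were high or low in several members. In the RC/RC group, RC139 had the highest value of 5 members (*Cdkn1a*, *Cdkn2b*, *Phlda3*, *Bax* and *Gdf15*) and the lowest of *Mdm2*, and RC143 had the lowest value of 6. In the knockout group Del3_70 had the highest value of 8 of the 10 members. These mice also stood apart in marker genes of cell types. RC143 had 8511 CPM of summed proximal tubule markers, against 3932 to 5963 CPM in the other RC/RC mice. RC139 had 1278 CPM of summed fibroblast and myofibroblast markers, against 533 to 735 CPM in the other RC/RC mice. Del3_70 had 164 CPM of injured tubule markers, against 30.9 to 47.7 CPM in the other knockout mice and 148 to 245 CPM in RC/RC mice. Without RC139, 4 members were called in RC/RC:*Casp1*KO against RC/RC (*Mdm2*, *Cdkn2b*, *Phlda3* and *Gdf15*), and without Del3_70 there were 4 (*Mdm2*, *Cdkn1a*, *Cdkn2b* and *Gdf15*), beside *Cdkn2a*, whose call is no support there.

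**Figure D4:**
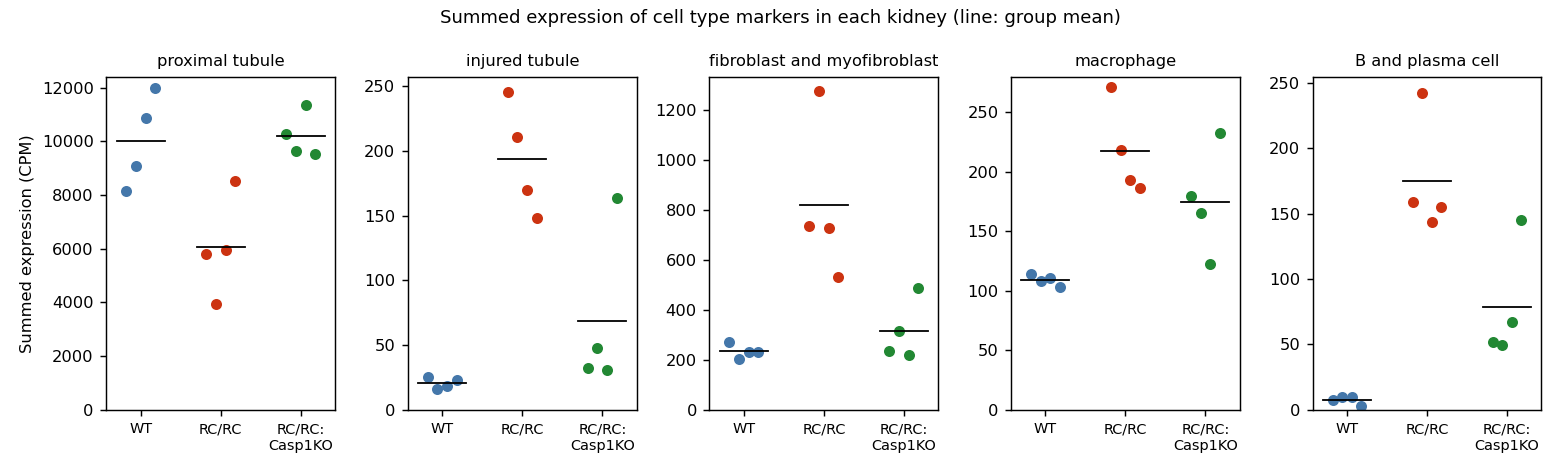
Summed expression of 5 lists of cell type markers in each kidney, in CPM (vertical axis, from 0), with 1 point per mouse and the mean of each group as a line. Injured tubule markers lay between 15.8 and 25.1 CPM in WT and between 148 and 245 CPM in RC/RC mice, and the knockout mouse Del3_70, at 164 CPM, lay among the RC/RC mice.

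Summed levels of cell type markers are given for the same kidneys. Proximal tubule markers (*Lrp2*, *Cubn*, *Slc34a1*, *Slc5a2* and *Aqp1*) summed to 6047 ± 1882 CPM in RC/RC and 10020 ± 1725 CPM in WT kidneys (SD, n = 4), a ratio of 0.604. The same ratio was 0.634 for thick ascending limb and distal convoluted tubule, 0.776 for podocyte and 1.56 for collecting duct markers, each with overlap between the groups. The collecting duct markers disagreed. With the length trend removed, the log2 fold change was 0.90 for *Aqp2*, 0.49 for *Scnn1g* and −1.23 for *Slc4a1*, none of them called. For endothelium markers it was 1.23, without overlap. Injured tubule markers (*Havcr1*, *Lcn2*, *Vcam1* and *Krt20*) were 9.42 times as high in RC/RC as in WT, with all 4 of 4 markers called and *Lcn2* the most abundant. Fibroblast and myofibroblast markers, led by *Col1a2*, were 3.49 times as high (5 of 5 called), macrophage markers, led by *Csf1r*, 1.99 times (4 of 5), T cell markers, led by *Cd3e*, 3.85 times (4 of 4), and B and plasma cell markers, led by *Jchain* (*Igj* in the table), 23.4 times (4 of 4). Of these 4 B and plasma cell markers, 1 was not tested in the knockout against WT. That marker entered the test here only through the RC/RC mice, so its call is no support. In the knockout, proximal tubule markers were 1.69 times as high as in RC/RC (2 of 5 called), and fibroblast markers were 0.383 times (3 of 5) and injured tubule markers 0.355 times (0 of 4) the RC/RC level. The injured tubule sums overlapped through Del3_70, and without this mouse their ratio was 0.191. B and plasma cell markers were 0.447 times (0 of 4), T cell markers 0.553 times (0 of 4) and macrophage markers 0.805 times (1 of 5) that level, each with overlap between the groups. *Csf1r*, the most abundant macrophage marker, went the other way, with means of 111 CPM in the knockout and 99.7 CPM in RC/RC. Against WT, the knockout had 3.34 times the injured tubule markers (0 of 4), 10.5 times the B and plasma cell markers (2 of 3 tested), 2.13 times the T cell markers (0 of 4) and 1.60 times the macrophage markers (0 of 5). In each of these 4 lists all knockout mice lay above all WT mice, and without Del3_70 the injured tubule ratio was 1.8. Over 10 lists and 3 comparisons, exact two-sided permutation of the mice can give no p below 0.0286, and adjusted over the 30 tests the smallest was 0.0714, so none passed. No marker was at 0 in every one of the 12 mice, and single groups were not checked for this. In bulk kidney, fewer cells of a type and less RNA per cell cannot be told apart, and the part of cell make-up in the members' changes was not tested.

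For each member, the 3 genes most like it over the 12 mice were taken among 12667 genes that reached 1 CPM in every mouse, by Pearson's correlation of log2 CPM. The mice share their group differences, so these values describe the pattern and carry no p. *Bax* was closest to *Thop1* (r = 0.98), *Coro1b* (0.97) and *Plod1* (0.95). *Phlda3* was closest to *Loxl1*, *Des* and *Ppp1r14a* (each 0.97), which include genes of elastic fibres and of contractile cells. *Cdkn1a* was closest to *Spsb1* (0.94), the immediate early gene *Jun* (0.93) and the killer gene *Bak1* (0.92). *Cdkn2a* was closest to *Relb* (0.97), *Lcp2* (0.94) and *Psd4* (0.94), of which *Relb* and *Lcp2* act in immune cells among others. *Cdkn2b* was closest to *Ier5l*, *S100a11* and *S100a6* (each 0.94), and *Mdm2* to *R3hdm1* (0.97), *Crocc* (0.97) and *Strbp* (0.96). *Trp53* was closest to the replication helicase gene *Mcm7* (0.93), *Zfp513* (0.89) and *Fcho1* (0.88). *Gdf15* was closest to *Gpihbp1* (0.93), *Mycn* (0.91) and *Jph2* (0.90), *Ccng1* to *Ext1* (0.90), *Sqle* (0.89) and *Ticam1* (0.89), and *Trp53inp1* to *Camk2d* (0.89), *Pawr* (0.87) and *Hltf* (0.85).

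The other genes of the pathway were read from 7 lists, of which the first holds regulators of p53. All of these lists were picked with earlier results of these data known, so their shares are descriptions only. In RC/RC against WT, 1 of 19 tested regulators rose and 1 fell, 10.5% of the list against 12.9% of all genes tested, with a median log2 fold change of −0.19. The checkpoint kinase gene *Chek1* rose with a log2 fold change of 1.62 (edgeR adjusted p = 0.0338), from 0.573 to 1.78 CPM, and *Trp53bp2*, whose product binds p53 and favours its killing targets, fell by 0.57 (edgeR adjusted p = 0.0132). After *Casp1* knockout, 2 rose against RC/RC and none fell, 10.5% against 11.6% of all genes, with a median of 0.14. Shares this near to those of all genes are no result about the list. *Mdm4*, the partner of Mdm2 in holding p53 down, was at 104 ± 12.6 CPM against 40.5 ± 7.78 CPM in RC/RC (SD, n = 4), a log2 fold change of 1.34 (SE 0.15, edgeR adjusted p = 0.00279), and all knockout mice lay above all RC/RC mice. *Trp53bp1*, a DNA repair factor, rose by 0.65 (edgeR adjusted p = 0.0103). With the length trend removed, *Mdm4* was at 1.14 (edgeR adjusted p = 0.00121) and *Trp53bp1* at 0.34 (edgeR adjusted p = 0.0330). In the list as a whole 2 then rose and 1 fell. *Mdm4* was at 69.2 ± 34.7 CPM in WT (SD, n = 4) and was not called in RC/RC against WT (log2 fold change −0.77, edgeR adjusted p = 0.160). Against WT the knockout differed in *Trp53bp2* alone among the 19 tested (−0.53, edgeR adjusted p = 0.0262), 5.26% against 2.03% of all genes.

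Another list holds p53 targets beyond the members. In RC/RC against WT, 5 of 37 rose and 1 fell (16.2% against 12.9% of all genes), with a median log2 fold change of 0.15. *Psrc1*, a spindle protein gene (1.55, edgeR adjusted p = 0.0125), and *Eda2r*, a receptor of the TNF family (1.42, edgeR adjusted p = 0.0381), rose, and *Plk3*, a stress kinase gene, fell by 1.79 (edgeR adjusted p = 0.0126). In the knockout, 2 rose and 4 fell against RC/RC (16.2% against 11.6%), with a median of −0.13. *Sfn*, which encodes the arrest protein 14-3-3σ, fell by 1.70 (edgeR adjusted p = 0.0446), *Ptp4a3*, a phosphatase gene, fell by 0.74 (edgeR adjusted p = 0.0443), and the DNA damage sensor gene *Ddb2* rose by 1.05 (edgeR adjusted p = 0.0377). *Sfn* was not called once the length trend was removed (−1.50, edgeR adjusted p = 0.0685), and 1 rose and 2 fell in the list as a whole. *Plk3* was also lower in the knockout than in WT (−1.75, edgeR adjusted p = 0.0282), the 1 call among 37, where 2.03% of all genes were called. The shares of this list lie near those of all genes.

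Genes of the proliferating cell were higher in RC/RC than in WT, in the same kidneys in which *Cdkn2a* and *Cdkn2b* were higher. Of 23 genes of the DREAM and proliferation list, which the retinoblastoma family represses in arrested cells, 16 rose and none fell (69.6% against 12.9% of all genes), with a median log2 fold change of 1.48. *Ccnb2* (2.16, edgeR adjusted p = 0.00362) and *Cdk1* (2.14, edgeR adjusted p = 0.00560), which drive mitosis, and the checkpoint kinase gene *Bub1* (2.13, edgeR adjusted p = 0.0107) rose most. Among the 23 is a gene that entered the test only through the RC/RC mice, since 22 were tested in the knockout against WT. Its difference is no support, and the share and median of the list include it. In the knockout against RC/RC only *Pcna*, the DNA polymerase clamp, was called, lower by a log2 fold change of −0.74 (edgeR adjusted p = 0.00691), which is 4.35% of the list against 11.6% of all genes, and the median was −0.39. Of the 23 genes, 22 had a log2 fold change below 0 there. Against WT, *Top2a* (1.58, edgeR adjusted p = 0.0449) and *Foxm1* (1.44, edgeR adjusted p = 0.0454) were still higher in the knockout, 2 of 22 tested (9.09% against 2.03% of all genes), with a median of 1.03. The CHR element TTTGAA, to which the DREAM complex binds, was found on either strand in the promoters of 8 of the 19 listed genes with a RefSeq promoter, against 17.9% of all promoters.

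Among the other kinase inhibitors and genes of the G1 switch, 3 of 19 rose in RC/RC against WT, a share of 15.8% near the 12.9% of all genes, with a median log2 fold change of 0.18 in the list. They were *Ccne1*, the cyclin that starts DNA replication (1.78, edgeR adjusted p = 0.0153), the inhibitor *Cdkn2c* (0.97, edgeR adjusted p = 0.00730) and the cyclin *Ccnd2* (0.96, edgeR adjusted p = 0.00733). *Cdk4*, the kinase that the Cdkn2 inhibitors bind, fell by 0.44 in RC/RC:*Casp1*KO against RC/RC (edgeR adjusted p = 0.0359), the 1 call of 19 (5.26% against 11.6% of all genes, with a list median of −0.16). With the length trend removed it was at −0.33 and missed the threshold (edgeR adjusted p = 0.0508), whereas *Ccnd2* was then called lower (−0.76, edgeR adjusted p = 0.0494), again 1 of 19. Against WT the knockout had 0 calls of 19 in this list.

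The BCL2 family gave 2 calls of 12 in RC/RC against WT, *Bcl2a1d* (2.02, edgeR adjusted p = 0.00255) and *Bok* (1.20, edgeR adjusted p = 0.0318), both higher, or 16.7% against 12.9% of all genes, with a median log2 fold change of 0.14 in the list. *Bcl2a1d* is uncertain, since near-identical copies of it can share reads. In the knockout against RC/RC the killers *Bok* (−0.98, edgeR adjusted p = 0.0443) and *Bak1* (−0.90, edgeR adjusted p = 0.0276) fell, 2 of 13 (15.4% against 11.6% of all genes), as *Bax* did, and the list median was −0.34. In neither comparison does the share stand far from that of all genes. *Bok* was no longer called with the length trend removed (−0.77, edgeR adjusted p = 0.0716). The survival gene *Bcl2l1* was lower in the knockout than in WT (−0.46, edgeR adjusted p = 0.0443), the 1 call of 12 (8.33% against 2.03%).

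Of 13 tested genes of the senescence-associated list, 6 rose in RC/RC against WT and none fell (46.2% against 12.9% of all genes), with a median of 0.74. The matrix protease *Mmp3* (3.64, edgeR adjusted p = 0.00653) and the chemokine *Ccl2* (3.56, edgeR adjusted p = 0.000806) rose most, and each of them is also made by stromal or immune cells. After *Casp1* knockout, 3 fell against RC/RC and none rose (23.1% against 11.6% of all genes), with a median of −0.46, among them *Tgfb1* (−1.17, edgeR adjusted p = 0.0210) and *Plaur* (−0.84, edgeR adjusted p = 0.0300). *Plaur* was not called with the length trend removed (−0.63, edgeR adjusted p = 0.0632). The integrated stress response, which can raise *Gdf15* without p53, gave 2 calls of 10 in RC/RC against WT (20% against 12.9% of all genes), *Atf3* (1.79, edgeR adjusted p = 0.00377) and *Asns* (0.86, edgeR adjusted p = 0.0471), with a median of 0.50 in the list. *Atf3* fell in RC/RC:*Casp1*KO against RC/RC (−1.51, edgeR adjusted p = 0.0139), the 1 call of 10 (10% against 11.6%). All 10 genes of this list had a log2 fold change below 0 there, with a median of −0.57 against −0.03 over all genes tested. With the length trend removed the median was −0.49, and not all of these genes were below 0. Against WT the knockout had 0 calls in either list.

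**Figure D5:**
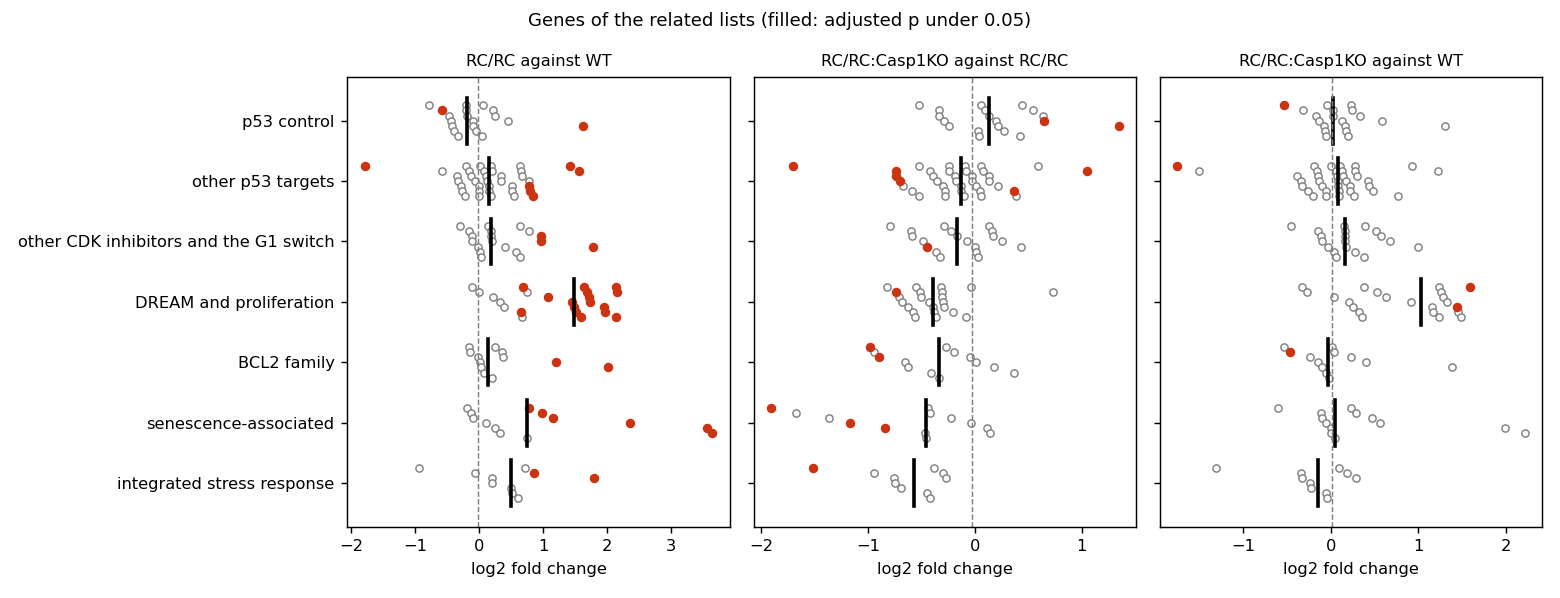
Log2 fold changes of the genes of 7 related lists in the 3 comparisons, 1 point per tested gene, with red points for an adjusted p under 0.05, black bars for the median of a list and a dashed line for the median of all genes tested. The DREAM and proliferation list stands to the right in RC/RC against WT (median 1.48, 16 of 23 called, with a gene among the 23 that entered the test only through RC/RC), and the horizontal scales differ between panels.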

How the data were processed

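Kidney poly(A) libraries of 12 mice were sequenced and analyzed for the authors by Novogene. The submitters' processing notes name CASAVA 1.8, STAR and the build mm10, and the counting tool, annotation and strand setting are not given in the sources used here. The authors deposited raw read counts per gene and mouse, which were used with the table's gene lengths (bp). Its FPKM, fold change and p-value columns, the latter from the authors' own comparisons, were not used. Per-sample columns of unknown origin numbered 0. The p-values measure the spread between mice, since counts in all 18 pairs of mice within groups differed more than chance sampling of reads gives (chi-square over its degrees of freedom, 15.7 to 128).

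Each pair of groups was fitted with edgeR 4.0.16 (R 4.3.3; TMM, filterByExpr, glmQLFTest), and SE is the log2 fold change over the square root of F. CPM used TMM factors of all 12 libraries, and FPKM was computed from the counts, gene lengths and library totals. The fit was tested on simulated data. Alternatives were DESeq2 1.42.0, RLE factors, library size alone, 2 count filters (at least 1 count, or 10 in every mouse), a fit of all mice, limma 3.58.1 on log2(FPKM + 1), 1 surrogate variable (sva 3.50.0), each mouse left out and, added later, removal of the length trend (loess, span 0.5).

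All 10 members, *Casp1* and *Pkd1* are named whatever their values, with the 3 largest calls of each list per comparison, the 3 genes most like each member, and the most abundant marker of a list. A gene of the senescence-associated list that this rule would name is not reported here. Members and lists were chosen with earlier results of these data known. Listed genes matched by older symbols numbered 4. Promoters are from RefSeq (GRCm38.p6), whose gene ends lie within 34 bases of the table's for the members.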

Additional observations from a re-analysis of the deposited data

Results flagged for a closer look

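In 8 of 36 groups of 4 mice (the 10 members, *Casp1* and *Pkd1* in 3 groups), 1 mouse stood apart from the other 3 by more than Dixon's critical value at the 95% level, where chance gives about 1 in 20. *Phlda3* was at 46.6 CPM in the RC/RC mouse RC139, against 12.2 to 18.1 CPM in the others. *Cdkn2a* was at 1.89 CPM in the knockout mouse Del3_70, against 0.19 to 0.22 CPM in the others. *Cdkn2a* was at 0 CPM in the WT mouse B6_2 and at 0.09 to 0.10 CPM in the others, a difference of 2 reads. The mouse B6_2 was also the highest WT mouse in *Phlda3* (13.0 CPM against at most 7.33), *Bax* (43.7 CPM against at most 33.8) and *Casp1* (2.05 CPM against at most 1.41). *Cdkn2b* was at 3.38 CPM in the knockout mouse Del3_42, against 2.53 to 2.67 CPM. *Ccng1* was at 212 CPM in the RC/RC mouse RC143, against 195 to 196 CPM.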

How the results depend on the processing

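No paired analysis was possible because the columns of the table carry no replicate number of the labels.

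In RC/RC against WT, 1971 genes were called, and 3027 with DESeq2. The 3 members called, *Cdkn2a* included, became 5 with DESeq2, with 1 surrogate variable and with a fit of all 12 mice. In RC/RC:*Casp1*KO against RC/RC, 1797 genes were called, against 3172 with DESeq2, 993 with library size alone and 1052 with limma. The 6 members called became 3 with library size alone, with limma and with the length trend removed, and in each case these were *Mdm2*, *Cdkn2b* and *Gdf15*. In RC/RC:*Casp1*KO against WT, 311 genes were called, against 1387 with DESeq2, 1306 with 1 surrogate variable and 167 with at least 10 counts in every mouse, and the 0 members called became 1 with DESeq2 and with 1 surrogate variable.

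With 1 mouse left out, 1162 to 2440 genes and 2 to 4 members were called in RC/RC against WT, 438 to 2789 genes and 0 to 6 members in the knockout against RC/RC, and 108 to 547 genes and 0 to 0 members in RC/RC:*Casp1*KO against WT. The members called in RC/RC:*Casp1*KO against RC/RC numbered 0 without RC140, 1 without Del3_105 or Del3_60 (*Mdm2*) and 3 without Del3_42. Genes called in this comparison numbered 440 without Del3_105, 810 without Del3_42, 606 without Del3_60, 754 without RC139, 438 without RC140 and 2789 without RC105. In RC/RC against WT they numbered 1162 without B6_6 and 1270 without RC139. In RC/RC:*Casp1*KO against WT they numbered 122 without B6_2, 119 without B6_3, 108 without B6_6, 124 without Del3_105, 547 without Del3_42, 147 without Del3_60 and 123 without Del3_70.

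Signs turned for 6 differences of members, none of them called, and for *Pkd1*. *Cdkn1a* in RC/RC against WT ran from −0.11 to 0.42 with 1 mouse left out, and was below 0 without B6_4 (−0.08) or RC139 (−0.11). *Trp53* in the knockout against RC/RC went to 0.030 with library size alone and 0.027 with limma, and ran from −0.072 to 0.046 with 1 mouse left out, above 0 without Del3_105, Del3_60, RC139 or RC140. Against WT, *Mdm2* in the knockout went to 0.053 with library size alone and 0.062 with limma, and ran from −0.16 to 0.024 with 1 mouse left out. *Gdf15* went to 0.0081 and 0.067 in these settings and ran from −0.37 to 0.095, *Phlda3* ran from −0.33 to 0.039 and *Trp53inp1* from −0.44 to 0.054. The values above 0 came without B6_6, or B6_2 for *Phlda3*. *Pkd1* in the knockout against RC/RC went from 0.37 (edgeR adjusted p = 0.143) to −0.11 with the length trend removed, and in RC/RC against WT ran from −0.078 to 0.16 with 1 mouse left out. Library size alone moved the median of all genes in RC/RC:*Casp1*KO against WT from 0.01 to 0.14. It also moved the share of calls that were higher from 75.4% to 86.1%, from 62.1% to 82.0% and from 55.9% to 79.8% in the 3 comparisons in the order given, and limma gave 84.2%, 79.5% and 76.1%. The cause of these changes was not tested. Depth limits *Cdkn2a*, which had at most 2 reads in a WT mouse, and sex was entered in no fit, since the column names do not give it. The fit with 1 surrogate variable is the alternative that bears on structure among mice within groups.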
